A study of Homo sapiens with 24 samples.

Results

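MYC, 3 long non-coding RNAs (lncRNAs) of the same chromosome band (PVT1, CCAT1 and CASC19) and 5 genes of the MAX network (MAX, MXI1, MXD4, MNT and MLX) were followed through HepG2 cells, an established human liver cancer line. These 9 genes were taken by symbol from the 26475 symbols counted, and the values of 24 RNA sequencing libraries were used, 3 libraries in each of 8 groups. The groups were DMSO (the solvent control), ABBV-075 at 50 nM, ABBV-744 at 50 nM, ABBV-744 at 500 nM, interferon gamma (IFNγ) alone, and IFNγ together with each of those 3 inhibitor treatments. All groups were the same wild-type line, and the IFNγ dose is not given in the sources used here, nor are the exposure times of the ABBV-744 and IFNγ arms. ABBV-075 inhibits both bromodomains of the BET proteins, readers of acetylated histones, whereas ABBV-744 is selective for the second bromodomain.

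Between 2978982 and 4304103 reads per library were counted on genes, which was 11.95% to 16.8% of the reads in each file. All 8 hepatocyte markers (ALB, AFP, APOA1, APOB, TTR, SERPINA1, TF and FGB) were detected in every library, with a summed level of 19347 to 26979 counts per 1e6 counted reads (CPM). Of 8 markers of other cell types, PTPRC, CD3E, COL1A2 and DCN were at 0 in all 24 libraries, and CD68, which reached 22.6 CPM, gave nearly all of the summed level of that list. The treatment labels were checked with the BET inhibitor marker HEXIM1 and with IRF1. HEXIM1 rose with ABBV-075 from 53.8 to 145 CPM, rose with ABBV-744 at 500 nM to 89.4 CPM, and stood at 64.8 CPM with ABBV-744 at 50 nM (not called). Added to IFNγ, ABBV-075 raised it from 47.0 to 135 CPM and ABBV-744 at 500 nM to 71.5 CPM. With IFNγ and ABBV-744 at 50 nM HEXIM1 stood at 49.5 CPM, which overlapped IFNγ alone and was not called. The marker therefore does not check the label of that group. IRF1 rose from 11.98 to 228 CPM with IFNγ.

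MYC is a transcription factor that binds DNA as a pair with MAX at the E-box, whose letters are CACGTG. MXI1, MXD4 and MNT also pair with MAX and recruit repressors to the same sites, so that the balance between MYC and these proteins sets whether E-box genes are driven or held down. MLX is a parallel partner, which pairs with MXD4, MNT and the glucose-sensing factors MLXIP and MLXIPL. In liver, MYC drives ribosome production and growth, and it is a recurrent target of gain in hepatocellular carcinoma. The MYC gene lies in a wide interval with few coding genes and many enhancers, and PVT1, CCAT1 and CASC19 are transcribed from it. In many cancer cells MYC is among the genes most sensitive to BET inhibitors.

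Among the 5 MAX network members 3 carry an E-box in their own start region. MYC, PVT1, CCAT1 and CASC19 were not searched. RefSeq windows of 300 bases (GRCh38.p14), reaching from 250 before a start to 50 after it, were searched on both strands for CACGTG and for the interferon gamma-activated site TTCNNNGAA. MXD4, MNT and MLX held 1 E-box each, and 2 windows of MAX and 3 of MXI1 held neither motif. The windows of the other network genes searched, MYCN, MYCL, MXD1, MXD3, MGA, MLXIP and MLXIPL, held neither motif as well. Over 35116 such windows of all genes, 7.26% held CACGTG and 7.66% held TTCNNNGAA. The sites below show the E-box in capitals with 12 bases on each side. The MXD4 site is at chr4:2262330-2262359 on the minus strand, and its E-box begins 238 bases before the start. The MNT site is at chr17:2401236-2401265 on the minus strand, with the E-box beginning 193 bases before the start, and the MLX site at chr17:42567038-42567067 on the plus strand, with the E-box beginning 50 before.
MXD4: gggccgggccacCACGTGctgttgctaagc
MNT: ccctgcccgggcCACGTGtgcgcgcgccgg
MLX: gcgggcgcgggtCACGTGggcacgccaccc

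MXD4 was the member of the repressor group with the most called differences, so its whole upstream stretch is also shown, chr4:2262110-2262359 read on the minus strand, with the E-box in capitals. None of its 250 bases lies in an annotated exon. A match to these letters describes the sequence and is no evidence that a factor binds there.
MXD4 upstream: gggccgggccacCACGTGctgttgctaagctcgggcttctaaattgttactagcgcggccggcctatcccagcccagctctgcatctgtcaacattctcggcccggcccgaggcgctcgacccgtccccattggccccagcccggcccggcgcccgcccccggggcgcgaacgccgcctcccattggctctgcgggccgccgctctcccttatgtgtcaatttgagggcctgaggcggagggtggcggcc

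MYC lies on chromosome 8 from 127735434 to 127742951 (build hg38, GENCODE v44, plus strand), and PVT1 runs from 127794526 to 128187101 on the same strand, starting 59.1 kb past the MYC start. CCAT1, at 127207382 to 127219268 by RefSeq, ends 516 kb before MYC. CASC19 is placed by RefSeq at 127187785 to 127197627, which leaves a gap of 9.76 kb to CCAT1, whereas the GENCODE gene of that name (127072694 to 127227541, minus strand) spans CCAT1 as well. The annotation used for counting is not given in the sources used here, so the division of reads between CCAT1 and CASC19 is uncertain. By RefSeq, MAX lies on chromosome 14 (65006101 to 65102695), MXI1 on chromosome 10 (110207605 to 110287365), MXD4 on chromosome 4 (2247432 to 2262109), MNT on chromosome 17 (2384073 to 2401060) and MLX also on chromosome 17 (42567100 to 42573203). MAX and MLX each overlap a gene on the opposite strand. By GENCODE so do MYC, with CASC11 at its start, PVT1 and CASC19. The counts used were those of 1 strand.

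Levels below are CPM of counts on genes, scaled by the trimmed mean of M values (TMM) over the 24 libraries. Between genes they were compared per kilobase of transcript. In DMSO, MLX stood at 40.0 CPM per kb and MYC at 29.0, above MXD4 at 13.7, MAX at 11.4, PVT1 at 5.70, MXI1 at 2.75 and MNT at 1.19. Of the MYC paralogs, MYCN had 1 count in 1 library and 0 in the other 23, and MYCL had 0 to 7 counts and passed no count filter. In bulk RNA, fewer cells with a transcript and less of it per cell cannot be told apart. Differences were tested with edgeR's quasi-likelihood test across all genes of a comparison, and a gene was called at an adjusted p (Benjamini-Hochberg) of at most 0.05. The labels do not say that the 3 libraries of a group came from separate cultures, so the p-values measure the spread between these libraries.

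**Figure D1:**
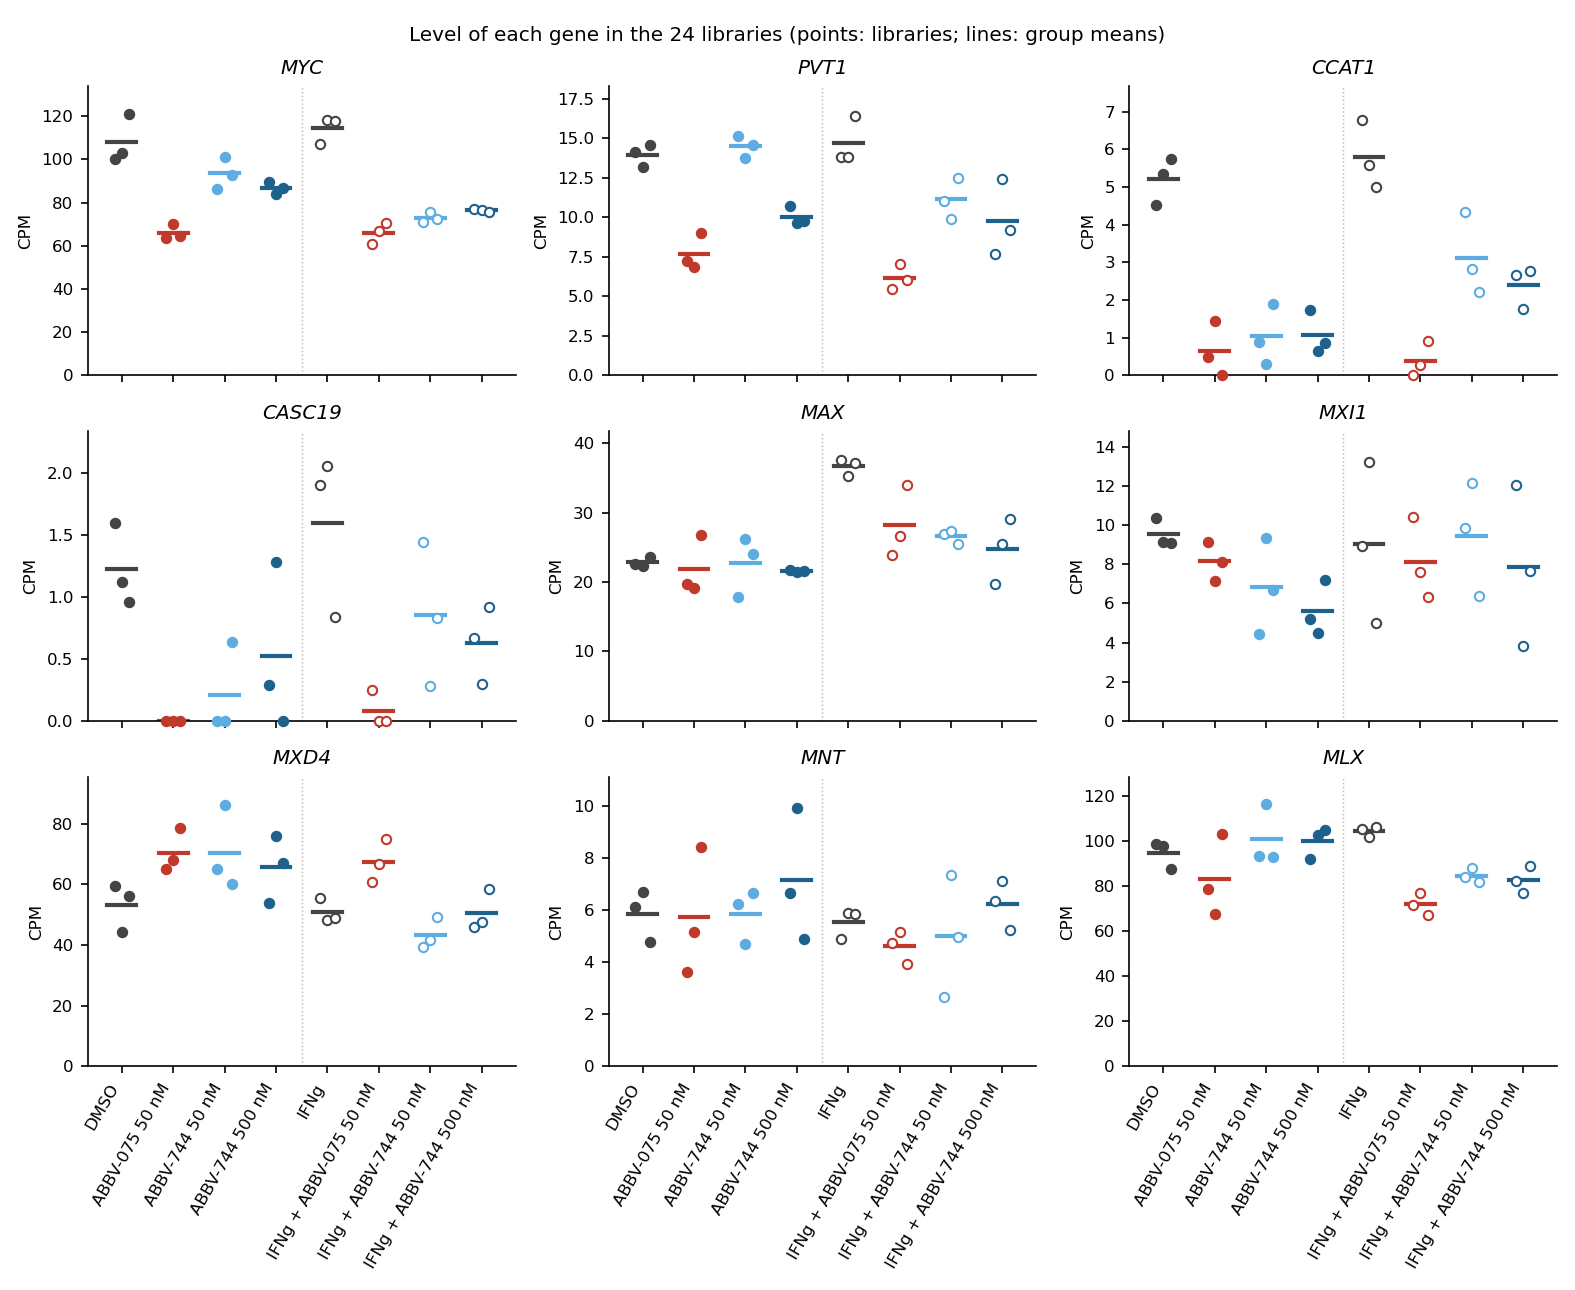
Level of each of the 9 genes in the 24 libraries, in CPM, 1 panel per gene with its own axis starting at 0; points are libraries (open with IFNγ) and horizontal lines are group means (n = 3). MYC and PVT1 were lowest in the 2 ABBV-075 groups, CCAT1 fell in every inhibitor group, and MAX was highest with IFNγ alone.

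MYC transcript fell with ABBV-075. The 3 DMSO libraries held 100, 103 and 121 CPM, and the 3 ABBV-075 libraries held 63.8, 70.2 and 64.3 CPM. The ranges did not overlap. The log2 fold change was −0.73 ± 0.126 (SE), a level 39.7% lower (95% interval 27.1% to 50.1%; edgeR adjusted p = 8.94e-04). Of the 8 members that passed the count filter in this comparison 3 fell (MYC, PVT1 and CCAT1) and 0 rose, while 19.6% of the 11244 genes tested were called lower and 39.3% in either direction. By the study's stricter rule, which also asks for a log2 change of at least 1.5 in size, MYC and PVT1 were not called and CCAT1 was, against 3.19% of genes called lower.

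With ABBV-744 the MYC level was nearer to the control. At 50 nM the libraries held 86.5, 101 and 92.9 CPM, which overlapped DMSO, and the log2 fold change of −0.19 (95% interval −0.42 to 0.03; edgeR adjusted p = 0.224) was not called. At 500 nM they held 89.4, 83.9 and 86.8 CPM, all under the lowest DMSO library, with a log2 fold change of −0.31 ± 0.104 (edgeR adjusted p = 0.0397). That call was lost without DMSO replicate 3 (−0.22), without DMSO replicate 2 (−0.34) and without ABBV-744 500 nM replicate 3 (−0.31), under DESeq2 (−0.31) and with the replicate block (−0.31). At 50 nM 1 of 8 tested members was called lower and 1 higher, where 18.9% of all genes were called, 10.1% lower and 8.81% higher. At 500 nM 2 were called lower and 0 higher, where 15.3% were called, 7.8% lower and 7.48% higher.

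IFNγ alone left the MYC transcript in the DMSO range. Its libraries held 107, 118 and 118 CPM (log2 fold change 0.09, 95% interval −0.10 to 0.27). Added to IFNγ, each inhibitor lowered MYC. ABBV-075 gave 60.9, 66.6 and 70.5 CPM, ABBV-744 at 50 nM gave 70.9, 75.7 and 72.5 CPM, and ABBV-744 at 500 nM gave 77.2, 76.6 and 75.8 CPM. None of these 9 libraries reached the lowest IFNγ library. The log2 fold changes against IFNγ were −0.81 ± 0.109 for ABBV-075, −0.64 ± 0.0955 for ABBV-744 at 50 nM and −0.60 ± 0.103 for ABBV-744 at 500 nM (edgeR adjusted p = 5.76e-08, 1.24e-06 and 1.45e-05). A correction for the GC content of genes kept the 3 calls and moved the last to −0.39. Over all alternative settings the weakest values were −0.58 for ABBV-075, −0.48 for ABBV-744 at 50 nM and −0.39 at 500 nM.

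The 3 comparisons with IFNγ share the same IFNγ libraries, and the 3 without it share the DMSO libraries. With IFNγ and ABBV-075, 5 members of 8 tested fell and 1 rose, where 56.6% of all genes were called, 28.4% lower and 28.2% higher. With IFNγ and ABBV-744 at 50 nM, 4 fell and 0 rose, where 51.7% of genes were called, 24.3% lower and 27.4% higher. With IFNγ and ABBV-744 at 500 nM, 5 fell and 0 rose, where 45.7% were called, 22.8% lower and 22.9% higher. With so many genes called, nothing particular to the members is read from these 3 counts. With IFNγ against DMSO 1 of 8 members, MAX, was called, as higher, and 3.46% of all genes, 2.76% higher and 0.695% lower. Groups whose ranges do not overlap were common as well. They were found for 5 members with ABBV-075, 3 with ABBV-744 at 50 nM, 5 at 500 nM and 2 with IFNγ, against 49.8%, 36.4%, 32% and 18.7% of all genes tested. On IFNγ they were found for 7, 5 and 5 of 8 members with ABBV-075 and with ABBV-744 at 50 and 500 nM, against 60.8%, 58.1% and 52% of all genes.

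**Figure D2:**
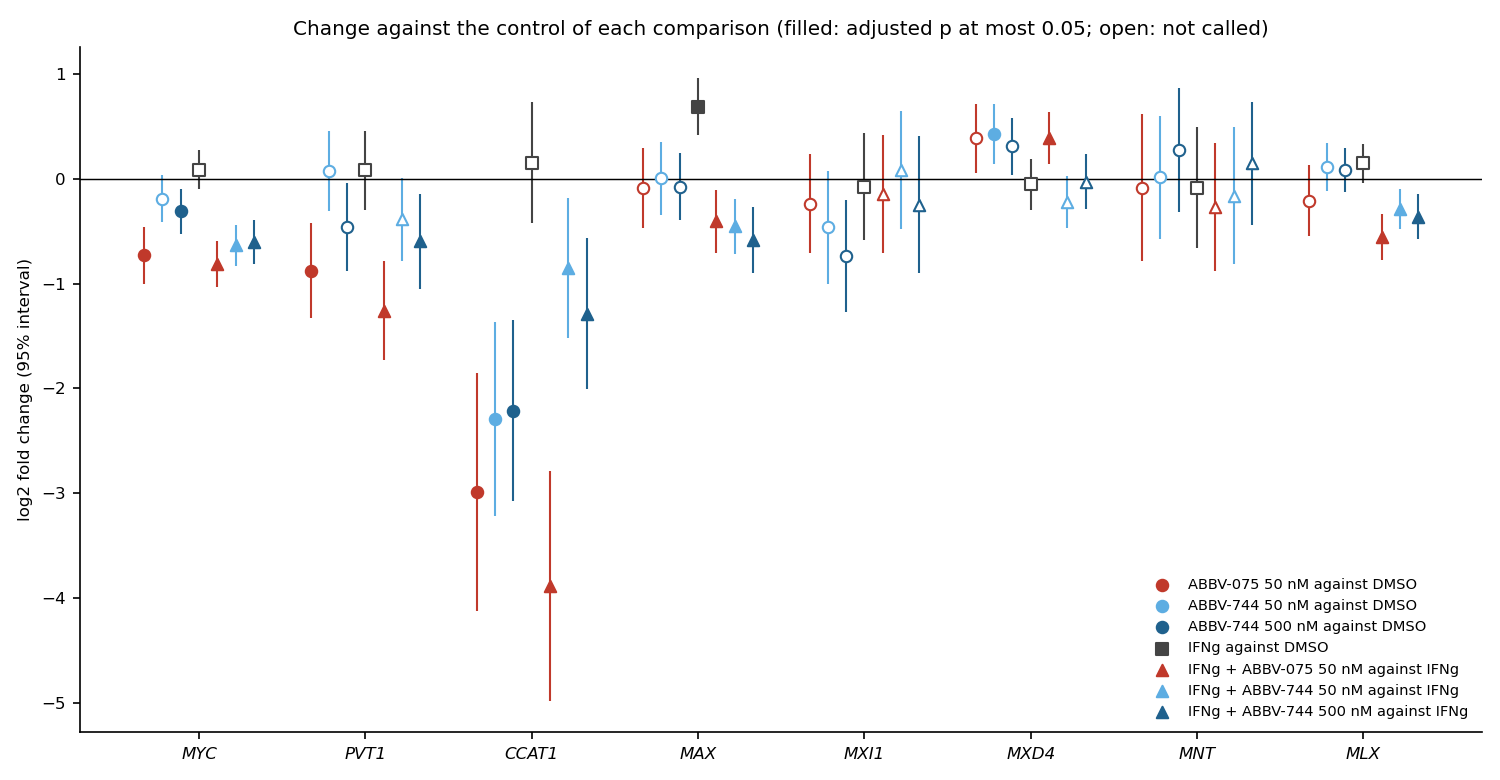
Log2 fold change of 8 members against the control of each of 7 comparisons, with the 95% interval of the edgeR fit as a line; filled points were called at an adjusted p of at most 0.05. CCAT1 lies farthest below 0, at −2.99 with ABBV-075 and −3.89 with IFNγ and ABBV-075, and MAX lies above 0 with IFNγ alone at 0.69.

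PVT1, an lncRNA whose gene starts next to MYC and is often gained with it, fell with ABBV-075 but not with ABBV-744 at 50 nM. DMSO held 14.1, 13.2 and 14.6 CPM, ABBV-075 held 7.22, 6.88 and 9.02 CPM, and ABBV-744 at 50 nM held 15.2, 13.7 and 14.6 CPM. ABBV-075 libraries were all below the lowest DMSO library, with a log2 fold change of −0.88 ± 0.209 (edgeR adjusted p = 0.0059). ABBV-744 gave 0.08 at 50 nM (95% interval −0.31 to 0.46), and at 500 nM −0.46 (95% interval −0.88 to −0.04; edgeR adjusted p = 0.126), which was not called although its libraries (10.7, 9.61 and 9.77 CPM) were all below DMSO.

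PVT1 also fell when ABBV-075 was added to IFNγ. IFNγ libraries held 13.8, 13.8 and 16.4 CPM and IFNγ with ABBV-075 held 5.47, 7.07 and 6.03 CPM, a log2 fold change of −1.26 ± 0.233 (edgeR adjusted p = 1.78e-05). With ABBV-744 at 50 nM the 3 libraries held 11.1, 9.88 and 12.5 CPM (log2 fold change −0.38; edgeR adjusted p = 0.0976), and at 500 nM 7.69, 12.4 and 9.21 CPM (−0.60 ± 0.222; edgeR adjusted p = 0.0277). The last call was lost without IFNγ replicate 3 (−0.52), without replicate 1 (−0.44) or replicate 3 (−0.53) of IFNγ with ABBV-744 500 nM, under DESeq2 (−0.58) and with the GC correction (−0.42). PVT1 counts were 13.0% ± 1.05 of the MYC counts in DMSO and 11.7% ± 2.14 with ABBV-075 (SD, n = 3), and the lowest group mean was 9.38%, with IFNγ and ABBV-075.

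CCAT1, an lncRNA known from colon cancer and transcribed from an enhancer-rich stretch upstream of MYC, had few counts and fell with every inhibitor. DMSO libraries had 17, 24 and 24 counts, ABBV-075 had 2, 5 and 0, ABBV-744 at 50 nM had 3, 1 and 6, and ABBV-744 at 500 nM had 6, 2 and 3. No inhibitor library reached the lowest DMSO library. The log2 fold changes were −2.99 ± 0.524 with ABBV-075, −2.29 ± 0.451 with ABBV-744 at 50 nM and −2.21 ± 0.423 at 500 nM (edgeR adjusted p = 9.69e-04, 0.00115 and 4.76e-04). From the pooled counts, CCAT1 was 8.20-fold lower with ABBV-075 (exact 95% interval 3.76 to 21.2), 5.08-fold lower with ABBV-744 at 50 nM (2.60 to 11.1) and 4.78-fold lower at 500 nM (2.50 to 10.0), intervals that cover counting error only. Leaving out ABBV-075 replicate 2 moved the first log2 value to −4.16, and leaving out ABBV-744 50 nM replicate 3 moved the second to −3.02; these calls remained.

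At 50 nM of ABBV-744, CCAT1 fell where MYC and PVT1 were not called. CCAT1 counts were 4.82% ± 0.344 of the MYC counts in DMSO and 0.932% ± 1.03, 1.13% ± 0.874 and 1.23% ± 0.628 in the 3 inhibitor groups without IFNγ (SD, n = 3). With IFNγ alone this share was 5.096% ± 1.093, and with IFNγ and ABBV-075 it was 0.5634% ± 0.655. ABBV-744 added to IFNγ gave 4.295% ± 1.601 at 50 nM and 3.141% ± 0.7198 at 500 nM. At 50 nM on IFNγ the libraries (6.102%, 3.731% and 3.053%) overlapped those of IFNγ alone (6.329%, 4.715% and 4.245%). No fall of CCAT1 beyond that of MYC is read there. IFNγ libraries had 25, 19 and 18 counts, IFNγ with ABBV-075 had 0, 1 and 3, IFNγ with ABBV-744 at 50 nM had 18, 10 and 8, and at 500 nM 8, 6 and 9. The log2 fold changes were −3.89 ± 0.542, −0.85 ± 0.329 and −1.29 ± 0.354 in that order (edgeR adjusted p = 1.25e-07, 0.0300 and 0.00345). Pooled counts gave 16.0-fold (exact 95% interval 5.93 to 60.4), 1.82-fold (1.19 to 2.83) and 2.43-fold (1.48 to 4.10) lower levels.

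The call for CCAT1 with IFNγ and ABBV-744 at 50 nM rested on single libraries. It was lost without IFNγ replicate 1 (−0.71) or 2 (−0.87), without replicate 2 (−0.79) or 3 (−0.68) of the treated group, and under DESeq2 (−0.87). For IFNγ with ABBV-075, leaving out treated replicate 3 gave −5.17 and leaving out treated replicate 1 gave −3.26, and both were called. CCAT1 had no GC value in the annotation, so the GC correction did not apply to it.

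CASC19, the lncRNA beside CCAT1, did not pass the count filter in any comparison and is given by its counts. They were 6, 5 and 4 in DMSO, 0, 0 and 0 with ABBV-075, 0, 0 and 2 with ABBV-744 at 50 nM, and 1, 4 and 0 at 500 nM. With IFNγ they were 7, 7 and 3, with IFNγ and ABBV-075 1, 0 and 0, with IFNγ and ABBV-744 at 50 nM 6, 1 and 3, and at 500 nM 2, 1 and 3. CASC19 was at least 4.41-fold lower with ABBV-075 than in DMSO if 3 counts over the group are the limit that 0 counts allow. That limit takes the 15 DMSO counts as free of error, so it cannot be set beside the exact intervals of the other ratios. With IFNγ and ABBV-075 the pooled rate was 17.5-fold lower than with IFNγ (exact 95% interval 2.74 to 732), and with ABBV-744 at 50 nM 5.87-fold lower than in DMSO (1.36 to 52.9). In the other comparisons with a control the interval held 1, and without a count filter edgeR called CASC19 only in the 2 comparisons with ABBV-075 (adjusted p = 0.0035 and 0.0022).

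Other genes of the region were taken from a list of 22 symbols. Of these, 8 were at 0 in every library and 6 never exceeded 2 counts, among them CASC11, which overlaps the MYC start, and CCAT2. Of the 8 that could be measured 0 were called lower with ABBV-075, and of the 7 tested with IFNγ and ABBV-075 also 0, where 19.6% and 28.4% of all genes were called lower, shares at which few of 7 or 8 genes would be called. FAM49B, 2104 kb past MYC, rose with ABBV-075 (log2 fold change 0.46 ± 0.131) and with IFNγ and ABBV-075 (0.65 ± 0.119), and fell with ABBV-744 at 50 nM (−0.39 ± 0.124). Added to IFNγ, ABBV-744 raised it at 50 nM (0.73) and 500 nM (0.51). KIAA0196, 2644 kb before MYC, fell with ABBV-744 at 50 nM (−0.84 ± 0.225) and rose when ABBV-744 at 50 nM was added to IFNγ (0.63 ± 0.182). TRIB1, a pseudokinase gene 2297 kb before MYC, was called against a control once, at −0.49 with IFNγ and ABBV-744 at 500 nM. SQLE, an enzyme of cholesterol synthesis, was called against a control once, at −0.26 with ABBV-744 at 50 nM, and was higher with ABBV-075 than with ABBV-744 at 50 nM both without IFNγ (0.54) and with it (0.34). With ABBV-075 the median of the list was 0.09 against 0.03 for all genes.

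**Figure D3:**
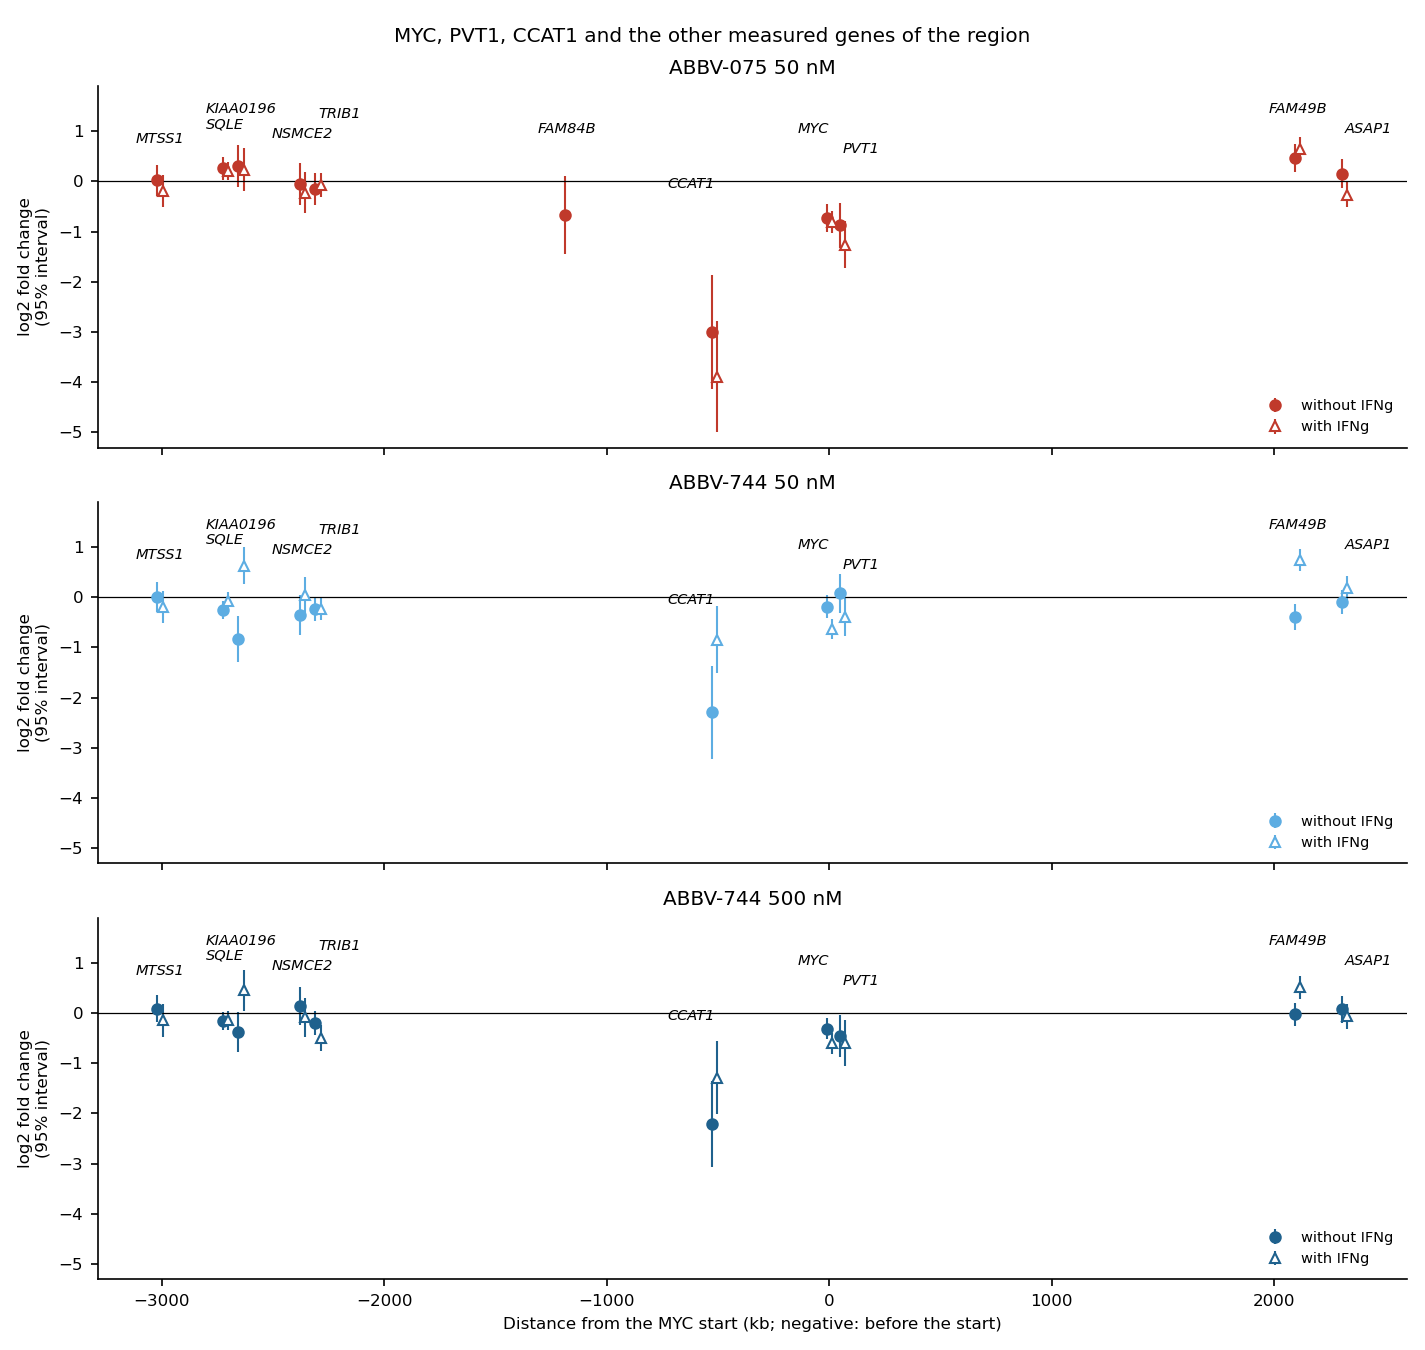
Log2 fold change with its 95% interval (lines) for MYC, PVT1, CCAT1 and the other measured genes of the region, by distance from the MYC start in kb, 1 panel per inhibitor treatment; filled circles are against DMSO and open triangles against IFNγ. With ABBV-075, CCAT1 lies at −2.99 and −3.89, below MYC and PVT1, and FAM49B lies above 0 at 0.46 and 0.65.

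MAX, the shared partner of MYC and its antagonists, was the member that answered to IFNγ. DMSO libraries held 22.6, 22.3 and 23.6 CPM and IFNγ libraries 37.6, 35.2 and 37.2 CPM. Every IFNγ library was above every DMSO library, by a log2 fold change of 0.69 ± 0.134, or 61.3% (edgeR adjusted p = 5.21e-04), and with the counts of both strands summed it was 0.71. The call held in 16 of 16 alternatives, with values from 0.63 to 0.72. None of the 3 inhibitor treatments without IFNγ gave a called change, with log2 fold changes of −0.09, 0.01 and −0.07.

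MAX was lower when an inhibitor was added to IFNγ. IFNγ with ABBV-075 held 23.9, 26.6 and 34.1 CPM, with ABBV-744 at 50 nM 26.9, 27.4 and 25.5 CPM, and at 500 nM 19.7, 25.4 and 29.2 CPM, all below the lowest IFNγ library. The log2 fold changes were −0.41 ± 0.149, −0.45 ± 0.130 and −0.58 ± 0.153 (edgeR adjusted p = 0.0197, 0.00408 and 0.0023). With the GC correction none of the 3 was called, and the values were −0.14, −0.21 and −0.32. The first was also lost without IFNγ replicate 1 (−0.39), without treated replicate 1 (−0.28) or 2 (−0.38), and under DESeq2 (−0.40).

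Of the 3 repressor members MXD4 was the only one called in any comparison. DMSO libraries held 59.3, 44.2 and 56.1 CPM, ABBV-075 65.0, 67.9 and 78.5 CPM, ABBV-744 at 50 nM 65.1, 86.1 and 60.2 CPM, and at 500 nM 54.0, 75.9 and 67.0 CPM. The first 2 inhibitor groups were above every DMSO library, and the third overlapped DMSO. The log2 fold changes were 0.39 ± 0.151, 0.43 ± 0.139 and 0.31 ± 0.133, of which only that of ABBV-744 at 50 nM was called (edgeR adjusted p = 0.0593, 0.0311 and 0.111). That call was lost without DMSO replicate 2 (0.31) or 3 (0.47), without ABBV-744 50 nM replicate 2 (0.26), under DESeq2 (0.42), with library size alone as the scale (0.32), with the GC correction (0.22), with the replicate block (0.42) and with all 24 libraries in 1 fit (0.41). ABBV-075 was called without its replicate 1 (0.45) with the GC correction (0.56), without a count filter (0.39) and with all 24 libraries (0.41), and ABBV-744 at 500 nM without its replicate 1 (0.44).

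With IFNγ, MXD4 was called for ABBV-075 alone. IFNγ libraries held 55.5, 48.2 and 48.9 CPM, IFNγ with ABBV-075 60.9, 66.6 and 75.0 CPM, with ABBV-744 at 50 nM 39.4, 41.5 and 49.3 CPM, and at 500 nM 45.8, 47.6 and 58.6 CPM. The log2 fold change with ABBV-075 was 0.39 ± 0.122 (edgeR adjusted p = 0.00687), lost without treated replicate 3 (0.31) and raised to 0.62 by the GC correction. The values with ABBV-744 were −0.22 and −0.03, and the first was called without treated replicate 3 (−0.34).

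MXI1 and MNT were low and were not called in any of the 14 tests. MXI1, which had 13 to 45 counts per library, ranged by group mean from 5.63 CPM with ABBV-744 at 500 nM to 9.53 CPM in DMSO. The 3 libraries of the former (5.22, 4.49 and 7.19 CPM) were all below the 3 of the latter (10.4, 9.14 and 9.07 CPM), with a log2 fold change of −0.74 (95% interval −1.27 to −0.20; edgeR adjusted p = 0.0529). It was called without ABBV-744 500 nM replicate 3 (−0.95) and under 4 other settings, among them at least 10 counts in every library (−0.74). MNT had 11 to 31 counts per library, and its ranges overlapped between each treated group and its control. Its log2 fold changes against DMSO or IFNγ lay between −0.27 and 0.28.

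MLX, the partner of the glucose-sensing factors, was the most abundant member per kilobase and fell when inhibitors were added to IFNγ. IFNγ libraries held 105, 102 and 106 CPM, IFNγ with ABBV-075 71.3, 77.0 and 66.9 CPM, with ABBV-744 at 50 nM 83.9, 87.8 and 81.9 CPM, and at 500 nM 82.2, 76.6 and 88.7 CPM. No treated library reached the IFNγ range. The log2 fold changes were −0.55 ± 0.108, −0.29 ± 0.0938 and −0.36 ± 0.104 (edgeR adjusted p = 3.53e-05, 0.00971 and 0.0052). With the GC correction the first was −0.28 and still called, and the others, at −0.04 and −0.09, were not. The third was also lost without treated replicate 2 (−0.31).

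Without IFNγ no inhibitor gave a called change of MLX. DMSO held 98.4, 97.5 and 87.6 CPM and ABBV-075 78.7, 67.3 and 103 CPM, so that 1 ABBV-075 library lay above DMSO and the other 2 below. The log2 fold change was −0.21 (95% interval −0.55 to 0.13), and without ABBV-075 replicate 3 it was −0.39 and called. ABBV-744 gave 0.11 at 50 nM and 0.08 at 500 nM.

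The other genes of the MYC, MAX and MLX network moved opposite to MYC with ABBV-075. Of 7 such genes, MYCN and MYCL did not pass the count filter, and the other 5 all rose with ABBV-075 and again with IFNγ and ABBV-075, where 19.8% and 28.2% of all genes were called higher. MXD1, a repressor that pairs with MAX, rose from 18.4 to 30.8 CPM (log2 fold change 0.73 ± 0.166), and MXD3, of the same family, from 11.5 to 18.7 CPM (0.66 ± 0.238). MGA, a MAX partner of the repressive complexes, rose by 0.38. MLXIP and MLXIPL, the glucose-sensing partners of MLX, rose by 0.80 and 0.72 with ABBV-075. They also rose with ABBV-744 at 50 nM (0.75 and 0.54) and at 500 nM (0.64 and 0.50), where MXD1, MXD3 and MGA were not called. With IFNγ alone none of the 5 was called, and on IFNγ ABBV-744 raised MGA at both doses (0.35 and 0.27) and MLXIP at 50 nM (0.39).

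The sum of the 5 repressors MXD1, MXI1, MXD3, MXD4 and MNT relative to MYC, per kilobase, describes the balance between them. The ratio was 1.16, 1.10 and 1.04 in DMSO, 2.43, 2.18 and 3.00 with ABBV-075, 1.75, 1.59 and 1.38 with ABBV-744 at 50 nM, and 1.40, 2.06 and 1.65 at 500 nM. With IFNγ it was 1.01, 0.863 and 0.975, with IFNγ and ABBV-075 2.46, 2.26 and 2.42, with IFNγ and ABBV-744 at 50 nM 1.39, 1.27 and 1.68, and at 500 nM 1.88, 1.45 and 1.66. Every inhibitor library was above every library of its control. The sum was formed after its members' values were seen and gets no test, and the short MXD3 transcript weighs heavily in it. The ratio of MAX to MYC per kilobase was 0.394 ± 0.0292 in DMSO, 0.596 ± 0.0510 with IFNγ, 0.616 ± 0.137 with ABBV-075 and 0.787 ± 0.0933 with both (SD, n = 3).

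**Figure D4:**
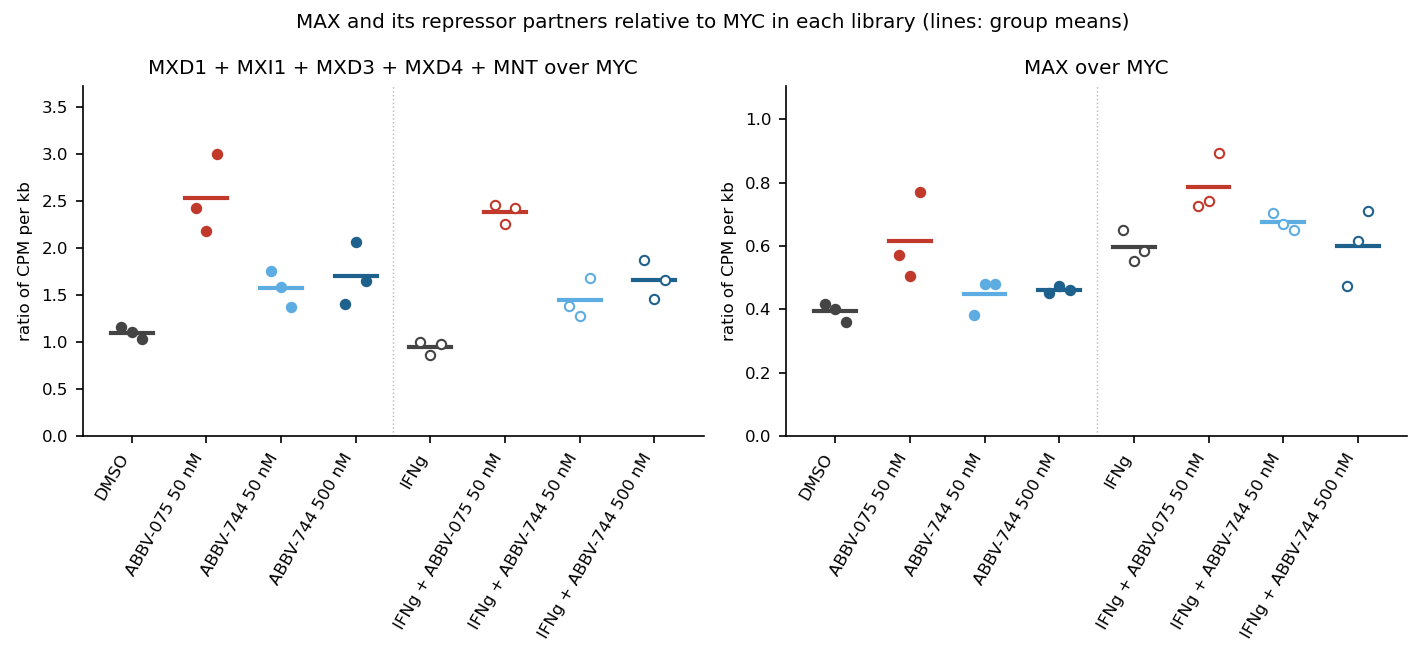
Ratio of the summed repressors (MXD1, MXI1, MXD3, MXD4 and MNT) to MYC and of MAX to MYC, per kilobase, in the 24 libraries; points are libraries and lines are group means. The repressor ratio has its highest group means in the 2 ABBV-075 groups, 2.53 and 2.38, against 1.10 in DMSO and 0.948 with IFNγ.

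MYC target genes fell more often than they rose with ABBV-075. Of 57 MYC target genes 54 were tested with ABBV-075, of which 29 fell and 1 rose, where 19.6% of all genes fell and 19.8% rose, and their median log2 value was −0.44, that of all genes 0.03. PA2G4, a growth regulator of the nucleolus, fell from 241 to 68.9 CPM (−1.82), HK2, the hexokinase of glycolytic cells, fell from 92.6 to 34.7 CPM (−1.44), and PLK4, the kinase of centriole duplication, rose by 1.07. With ABBV-744 9 of 54 fell and 1 rose at 50 nM (median −0.06), where 10.1% of all genes fell, and 14 of 54 fell and 0 rose at 500 nM (median −0.15), where 7.8% fell. With IFNγ alone 0 were called (median 0.05). On IFNγ 36 fell and 8 rose with ABBV-075 (median −0.58), 34 and 12 with ABBV-744 at 50 nM (−0.38), and 31 and 9 of 53 at 500 nM (−0.38), where 28.4%, 24.3% and 22.8% of all genes fell and 28.2%, 27.4% and 22.9% rose, with PA2G4 lowest in each at −1.94, −1.64 and −1.60.

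Genes known to be held down by MYC with its partner ZBTB17 were not called higher with ABBV-075. Of 5 tested, 3 fell with ABBV-075 and 0 rose (median −0.43), where 19.6% of all genes fell and 19.8% rose, among them the cell cycle inhibitor CDKN1A (−0.68) and the stress gene NDRG1 (−0.89). On IFNγ 3 of 5 fell with each inhibitor treatment, where 22.8% to 28.4% of all genes fell, and nothing particular to so short a list is read from these counts. Among 18 tested partners and stability factors of the MYC protein 6 rose and 6 fell with ABBV-075, where 39.3% of all genes were called, with the helicase RUVBL1 (−1.22) and the acetyltransferase KAT2A (−0.86) lowest and MYCBP2 (1.32) and the kinase GSK3B (0.69) highest. Of the 3 targets of MLX with MLXIP or MLXIPL, TXNIP, an inhibitor of glucose uptake, rose with ABBV-075 from 26.4 to 164 CPM (2.61) and its relative ARRDC4 by 1.72, while PKLR, the liver pyruvate kinase, fell by 1.498 on the log2 scale.

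ABBV-075 and ABBV-744 were compared directly at 50 nM, and 2 members differed without IFNγ. The exposure time of the ABBV-744 arm is not given, so whether the exposures matched is not known. MYC was lower with ABBV-075 by a log2 value of −0.51 ± 0.129 and PVT1 by −0.93 ± 0.211 (edgeR adjusted p = 0.0108 and 0.00683), in a comparison where 40.8% of all genes were called. The MYC difference was lost without ABBV-744 50 nM replicate 2 (−0.45; edgeR adjusted p = 0.0523). CCAT1 was too low to test, with 7 counts against 10 over the 3 libraries, a rate 1.61-fold lower with ABBV-075 (exact 95% interval 0.554 to 4.99). For MXD4 the difference was −0.02 (95% interval −0.38 to 0.34), and with the GC correction it changed sign and was called, at 0.35.

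With IFNγ the members that differed at 50 nM were PVT1 (−0.80 ± 0.240; edgeR adjusted p = 0.00794) and MXD4 (0.68 ± 0.118; edgeR adjusted p = 1.24e-05), where 33.7% of all genes were called. MXD4 was higher with ABBV-075 in 3 of 3 libraries than in any with ABBV-744, and the call held in 16 of 16 alternatives. MYC did not pass the test (−0.10, 95% interval −0.31 to 0.11), although the ranges of 60.9 to 70.5 and 70.9 to 75.7 CPM did not overlap, as for 44% of all genes. CCAT1 was 8.76-fold lower with ABBV-075 by pooled counts of 4 against 36 (exact 95% interval 3.14 to 33.9).

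Raising ABBV-744 from 50 to 500 nM changed no member by the test. Of 7 members tested without IFNγ and 7 with it edgeR and DESeq2 each called 0, where edgeR called 0.0274% and 1.7% of all genes. Before adjustment 1 member in each passed an edgeR p of 0.05, PVT1 without IFNγ at −0.54 and MXD4 with it at 0.26. MYC differed by −0.12 (95% interval −0.37 to 0.13) without IFNγ and by 0.10 (95% interval −0.10 to 0.30) with it. In all, 11 pairs of groups and 3 interactions were compared.

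Whether an inhibitor acted differently with IFNγ was tested by the interaction. For ABBV-075 edgeR called it for 0 of 8 members and for 0.0347% of all genes, and 0 members passed an unadjusted p of 0.05 or were called by DESeq2. For MYC it was −0.10 (95% interval −0.43 to 0.23) and for PVT1 −0.40 (95% interval −1.005 to 0.21). For ABBV-744 at 50 nM it was called for 5 of 8 members, where 51.6% of all genes were called. MYC (−0.47 ± 0.140), MAX (−0.49 ± 0.203), MXD4 (−0.68 ± 0.193) and MLX (−0.43 ± 0.142) were lower, and CCAT1 (1.41 ± 0.585) was higher, with the inhibitor in the presence of IFNγ than the separate effects add up to (edgeR adjusted p = 0.0061, 0.0448, 0.0045, 0.0123 and 0.0448). The median of all genes in this test was −0.14, and with library size alone as the scale it was 0.04, a shift after which MYC stood at −0.28, MAX at −0.30 and MLX at −0.24 and were not called. With the GC correction MYC stood at −0.24, MAX at −0.11, MXD4 at −0.11 and MLX at −0.03, and none of these 4 was called. The value of CCAT1, which has no GC value and was not itself corrected, stayed at 1.41 in that fit, with an edgeR adjusted p of 0.0855.

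For ABBV-744 at 500 nM the interaction was called for MLX alone (−0.42 ± 0.139; edgeR adjusted p = 0.0190), where 33.5% of all genes were called, and for 0 members with the GC correction. MLX was lost without DMSO replicate 3 (−0.34), ABBV-744 500 nM replicate 3 (−0.39) or replicate 2 of IFNγ with ABBV-744 500 nM (−0.38). Without the last replicate of that group MAX was called as well (−0.62). At 50 nM, MLX was lost without ABBV-744 50 nM replicate 2 (−0.31), CCAT1 without DMSO replicate 2 or 3, ABBV-744 50 nM replicate 1 or 2, IFNγ replicate 2 or 3 or replicate 1 of IFNγ with ABBV-744 50 nM (0.9965 to 1.39), and MAX without any 1 library other than ABBV-744 50 nM replicate 1 (−0.52 to −0.37).

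Over the 24 libraries the members nearest to MYC in their log2 CPM were PVT1 (Pearson r 0.810), CCAT1 (0.671) and MLX (0.666), and CASC19 (0.554), MAX (0.295), MNT (0.171), MXI1 (0.0377) and MXD4 (−0.187) followed. The libraries share 8 treatments, so these values describe the treatments and carry no test. Among 7467 genes compared, those most like MYC were ETV4 (0.949), TRIB3 (0.944), AEN (0.944), ITGB5 (0.942) and PHLDA3 (0.942), and those least like it DCAF10 (−0.960), C6orf120 (−0.951) and RNF141 (−0.931). In the 12 libraries without IFNγ the first 5 stood at 0.907 to 0.936, PVT1 at 0.832, CCAT1 at 0.716 and CASC19 at 0.602, while MLX stood at 0.375, MXD4 at −0.429 and MNT at −0.0269. Among those most like PVT1 were STC2 (0.929) and METTL3 (0.919).

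In order of group means, MYC ran from IFNγ (114 ± 6.42 CPM) and DMSO (108 ± 11.3) through ABBV-744 at 50 nM (93.5 ± 7.31) and 500 nM (86.7 ± 2.72) to IFNγ with ABBV-744 at 500 nM (76.5 ± 0.692) and 50 nM (73.0 ± 2.43), ABBV-075 (66.1 ± 3.56) and IFNγ with ABBV-075 (66.0 ± 4.86), all SD with n = 3. The ranges of the first 4 overlapped each with its neighbour, as did those of the last pair. The order of PVT1 was led by IFNγ, ABBV-744 at 50 nM and DMSO, between 13.9 and 14.7 CPM, and ended with the same pair of ABBV-075 groups at 7.70 ± 1.15 and 6.19 ± 0.814 CPM. The level of CD68 moved with these groups, since the summed markers of other cell types ran from 18.9 to 22.7 CPM in DMSO, from 8.42 to 14.7 with ABBV-075, from 20.6 to 24.1 with IFNγ and from 7.99 to 13.4 with IFNγ and an inhibitor. Its part in these results was not tested.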

How the data were processed

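RNA was sequenced from 24 HepG2 libraries in 8 groups of 3, grouped by the titles of the samples. The deposited files hold read counts per gene on each strand, made by the authors with CASAVA 1.8.2, Trimmomatic 0.33 and STAR 2.7.1 on build hg38, per the submitters' processing notes, which also name DESeq2. The annotation used for counting is not given in the sources used here. Between 56.0% and 69.4% of the reads mapped to several places and were not counted, which lowers counts of genes with close copies. Counts of 1 strand were tested as deposited with edgeR 4.0.16 (R 4.3.3): filterByExpr, TMM and the quasi-likelihood test in each comparison's own libraries, or the libraries of 4 groups for an interaction, with Benjamini-Hochberg adjustment over all genes tested. The study's thresholds were an adjusted p of 0.05 and a log2 change of 1.5. Intervals from counts cover counting error only, and the CASC19 limit covers that of the treated group alone. The depth of 2978982 to 4304103 counts limits CCAT1, CASC19, MXI1 and MNT. Named genes were the 9 members, the network and region genes that passed the filter, the 2 highest and 2 lowest called genes of each other list, and the genes most like MYC and PVT1 by Pearson r, of which 1 is not reported here. The members and lists were chosen with earlier results of these data known. Alternatives were DESeq2 1.42.0, RLE factors, library size only, 2 other filters, the replicate block, both strands, a GC correction, all 24 libraries in 1 fit and leaving out each library.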

Additional observations from a re-analysis of the deposited data

Results flagged for a closer look

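The effect of ABBV-744 at 50 nM differed with and without IFNγ, by the interaction test of edgeR, for 5 members, where 51.6% of all genes were called. The log2 differences (with IFNγ minus without) were −0.47 for MYC, 1.41 for CCAT1, −0.49 for MAX, −0.68 for MXD4 and −0.43 for MLX. Without IFNγ the log2 fold changes of these genes with ABBV-744 at 50 nM were −0.19, −2.29, 0.01, 0.43 and 0.11, and with IFNγ they were −0.64, −0.85, −0.45, −0.22 and −0.29. At 500 nM the difference was called for MLX alone, at −0.42, from 0.08 without IFNγ to −0.36 with it. After the GC correction none of the differences of MYC, MAX, MXD4 and MLX was called, and CCAT1, which has no GC value, was not itself corrected. The part of GC content in them was not tested further. Reads mapping to several places were 66.2%, 69.4% and 69.0% with ABBV-744 at 50 nM and 59.6%, 59.1% and 57.5% with IFNγ and ABBV-744 at 50 nM. They were 61.0%, 56.0% and 59.3% in DMSO and 58.3%, 62.4% and 66.4% with IFNγ alone. The part of these shares in the interaction was not tested.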

How the results depend on the processing

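Of 1854 values of single members under alternative settings, 1741 kept their direction and their side of the threshold, 92 lost the call, 19 gained it and 2 changed sign with a call in 1 of the fits. For MYC 233 of 242 kept both. Values of the network, region and target genes are given from the main fit alone, so their dependence on the settings is not shown. The exceptions for MYC were ABBV-744 at 500 nM against DMSO under DESeq2 (−0.31) and with the replicate block (−0.31), and the interaction of ABBV-744 at 50 nM with IFNγ under library size only (−0.28), the GC correction (−0.24) and the GC correction with the replicate block (−0.24), beside single libraries left out, over which the first ran from −0.36 to −0.22 and ABBV-075 against ABBV-744 at 50 nM from −0.56 to −0.45. The sign changes were MXD4 in ABBV-075 against ABBV-744 at 50 nM, at 0.35 with the GC correction and 0.36 with the block added.

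The number of members called was 3 with ABBV-075 against DMSO and 5 without a filter, where CASC19 was tested and called and MXD4 passed as well. With ABBV-744 at 50 nM it was 2, 0 under DESeq2, and 1 with library size only, at least 10 counts in every library, the replicate block, the GC correction with or without the block, or all 24 libraries, and 1 to 2 with a library left out. With ABBV-744 at 500 nM it was 2, 0 under DESeq2, 1 with the replicate block and 1 to 3 with a library left out. The GC correction, with or without the block, left 2 of 4 with IFNγ and ABBV-744 at 50 nM and 2 of 5 at 500 nM. For ABBV-075 against ABBV-744 at 50 nM the 2 calls ran from 1 to 3 with a library left out. The interaction of ABBV-744 at 50 nM had 5 calls, 3 under DESeq2, the replicate block, both strands together or all 24 libraries, 2 with library size only, 0 with either GC correction, and 2 to 4 with a library left out. That at 500 nM had 1, 0 with library size only, either GC correction or all 24 libraries, and 0 to 2 with a library left out. The causes were not tested.

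The replicate numbers were not used as pairs in the main fits. Correlations of same-numbered deviations ran from −0.20 to 0.39, and no comparison had all over 0.1. Among the comparisons with all above 0 was ABBV-744 at 500 against 50 nM (0.28, 0.38 and 0.05). Whether the samples were paired is not settled by these values. The replicate block ended 4 calls of members. With library size only, the higher and lower calls over all genes went from 979 and 1123 to 415 and 1220 with ABBV-744 at 50 nM, from 832 and 868 to 475 and 1067 at 500 nM, from 310 and 78 to 250 and 204 with IFNγ, from 1860 and 1892 to 1166 and 2836 for IFNγ with ABBV-075 against IFNγ with ABBV-744 at 50 nM, from 155 and 32 to 76 and 92 for 500 against 50 nM with IFNγ, and from 2866 and 3039 to 3386 and 1740 and from 2115 and 1712 to 2292 and 1095 for the ABBV-744 interactions at 50 and 500 nM.

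The number of all genes called moved by over 1.5 times in these cases. With ABBV-744 at 50 nM it went from 2102 to 1216 under DESeq2, 1204 with the GC correction, 910 with the block added, and 708, 900 and 1156 without DMSO replicate 2, DMSO replicate 3 or treated replicate 3. At 500 nM it went from 1700 to 1042 under DESeq2 and to 793, 874 and 1003 without the same replicates. With the GC correction, and with the block added, it went from 5766 to 3837 and 3797 for IFNγ with ABBV-744 at 50 nM, from 5905 to 2331 and 2293 for its interaction, and from 3827 to 1913 and 1814 for that at 500 nM. For ABBV-075 against ABBV-744 it went from 4481 to 2651 and 2696 without replicate 2 of either. The 3 calls between doses of ABBV-744 ran from 0 to 320 (replicate block), the 187 with IFNγ from 2 (all 24 libraries) to 473, and the 4 of the ABBV-075 interaction reached 200 without ABBV-075 replicate 1.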
